A study of Mus musculus with 14 samples.

Results

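Expression of 5 genes was followed in 4T1 tumours: the chemokine genes Cxcl9, Cxcl10 and Cxcl11, the gene of their shared receptor, Cxcr3, and Ido1, the gene of an enzyme that degrades tryptophan. They were taken by name from the 54532 genes of the deposited table, and all 5 had enough reads to be among the 15360 genes tested. The tumours came from 4T1, an established mouse mammary carcinoma line whose cells (1000000 per animal) were placed under the skin of the mammary area. Treatment began on day 9, when tumours had reached roughly 100 mm3, and consisted of PBS (4 libraries), 100 mg/kg CTX (5 libraries, CTX100) or 140 mg/kg CTX (5 libraries, CTX140) into the peritoneum every 6 days for 3 cycles. CTX is taken here as cyclophosphamide, an alkylating drug that crosslinks DNA. Whole tumours were taken 3 days after the last injection, so every library mixes carcinoma cells with host cells. The labels give no host strain, sex or age, and nothing in them ties a library to its own mouse, so the p-values reflect the spread between these samples and no more.

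Cxcl9, Cxcl10 and Cxcl11 are small secreted proteins that bind Cxcr3, a G protein-coupled receptor found mainly on activated T cells and NK cells, and guide those cells into inflamed tissue. Interferon gamma induces all of these ligands, and Cxcl10 also responds strongly to type I interferon and to NF-kappaB. Ido1 is another interferon-induced gene: its enzyme turns tryptophan into kynurenine, which starves T cells of tryptophan and activates the aryl hydrocarbon receptor, and it is known as a brake on T cell responses in tumours.

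The ligand genes lie side by side on the minus strand of chromosome 5 in mm10: Cxcl9 at chr5:92321347-92328079, Cxcl10 at chr5:92346638-92348889 and Cxcl11 at chr5:92359544-92365485. Cxcr3 lies at chrX:101731535-101734269 and Ido1 at chr8:24584136-24597009, also on the minus strand. The table lists Cxcl11 as a polymorphic pseudogene, since the mouse reference strain carries an allele that does not encode the full protein. The counts below therefore measure its RNA, and say nothing of which allele these animals carry. RefSeq promoter sequences on GRCm38.p6 were given for 3 of the 5 genes, Cxcl9, Cxcl10 and Cxcr3. Those of Cxcl11 and Ido1, which also rose, were not given, so of the genes that rose only Cxcl10 could be searched. The 250 bases before the start of Cxcl10, at chr5:92348890-92349139, and of Cxcl9, at chr5:92328080-92328329, are shown because Cxcl10 was among the genes that rose and its neighbour Cxcl9 was not. Both are written 5′ to 3′ on the strand of the gene, with capitals marking each motif match.
Cxcl10: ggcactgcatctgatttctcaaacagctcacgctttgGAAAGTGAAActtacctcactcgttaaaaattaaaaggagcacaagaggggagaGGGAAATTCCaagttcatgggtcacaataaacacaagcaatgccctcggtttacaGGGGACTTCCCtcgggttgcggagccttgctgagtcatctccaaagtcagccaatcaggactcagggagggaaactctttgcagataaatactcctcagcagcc
Cxcl9: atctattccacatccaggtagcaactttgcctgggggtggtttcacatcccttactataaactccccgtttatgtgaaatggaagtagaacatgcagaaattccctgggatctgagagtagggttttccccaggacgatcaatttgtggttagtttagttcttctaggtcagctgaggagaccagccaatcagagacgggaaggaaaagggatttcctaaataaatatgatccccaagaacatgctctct

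An interferon-stimulated response element was searched as GAAA, any 2 bases and GAAA, an interferon gamma-activated site as TTCNNNGAA and the NF-kappaB element by the usual kB consensus, all on both strands. The Cxcl10 window held GAAAGTGAAA at 213 to 204 bases before the start. It also held 3 kB matches, GGGAAATTCC at 159 to 150 bases and the overlapping pair GGGGACTTCC at 104 to 95 and GGGACTTCCC at 103 to 94 bases. It held no match to the interferon gamma-activated site. None of the 3 motifs matched in the windows of Cxcl9 or Cxcr3. Among 32851 promoter windows of that length, 2.98% held the response element, 7.02% the interferon gamma-activated site and 7.25% a kB match. A match is a description of letters, and its absence says only that these letters are not in this window.

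The libraries held 14.4 to 19.3 times 1000000 counts each. As a check of the label, the carcinoma keratins were abundant, with Krt8 at 911 ± 181 CPM (counts per 1000000 of the scaled library, mean ± SD) and Krt18 at 738 ± 172 CPM in PBS (n = 4), while the epithelial adhesion gene Epcam was at 1.40 ± 1.07 CPM. A pair of libraries stood apart in lymphocyte markers. The summed level of the 8 B cell and plasma cell markers, tested or not, was 112 CPM in PBS 1 and 154 CPM in CTX140 1. In the other 12 libraries it was 3.28 to 22.9 CPM. The summed level of the 13 T cell markers was 1026 CPM in CTX140 1 and 406 CPM in CTX140 2, against 114 to 254 CPM elsewhere.

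Cxcl10, Cxcl11 and Ido1 rose at both doses, while the tests for Cxcl9 and Cxcr3 did not pass at either. At 100 mg/kg the fitted change was 2.25-fold for Cxcl10, 3.25-fold for Cxcl11 and 2.41-fold for Ido1. The higher dose gave 2.95-fold, 4.22-fold and 3.77-fold. Thus 3 of 5 genes were called higher at 100 mg/kg, where 1.2% of all tested genes were called higher, and 3 of 5 at 140 mg/kg, where 11.1% were. Calls needed an adjusted p under 0.05, from edgeR's quasi-likelihood test and the Benjamini-Hochberg method across the whole set of tested genes. Among all tested genes 0.397% were called lower at 100 mg/kg and 10.1% at 140 mg/kg, and none of the 5 genes was. In these same 3 genes every treated library was above every PBS library, a separation seen in 5.17% of tested genes at 100 mg/kg and 7.34% at 140 mg/kg. The median log2 fold change of the 5 genes was 1.17 and 1.56, beside -0.01 and 0.02 over all tested genes. Both comparisons use the same PBS libraries, so they are not independent of each other. In bulk RNA, fewer or more cells of a type and less or more RNA per cell cannot be told apart.

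**Figure D1:**
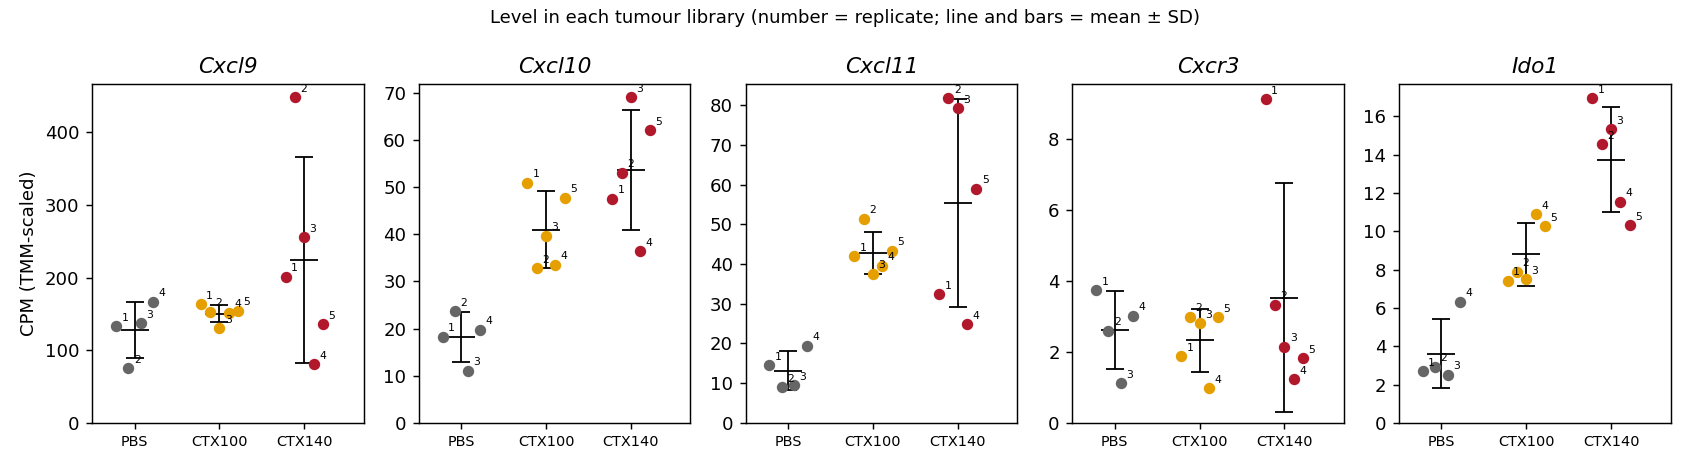
Level of each gene in every library, in CPM of the TMM-scaled library ( linear axis from 0), by treatment group, with a horizontal line and bars for the mean ± SD and the replicate number beside each point. For Cxcl10, Cxcl11 and Ido1 the highest PBS point lies below the lowest point of either dose; for Cxcl9 and Cxcr3 the groups overlap, and CTX140 2 and CTX140 1 are the respective high points.

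Cxcl10, the ligand also known as IP-10, more than doubled in mean level at both doses. Its levels in PBS libraries 1 to 4 were 18.3, 23.6, 11.0 and 19.8 CPM. In CTX100 libraries 1 to 5 they were 50.9, 32.9, 39.7, 33.6 and 47.8 CPM, and in CTX140 libraries 1 to 5 they were 47.6, 53.1, 69.1, 36.4 and 62.1 CPM. Every treated library exceeded the highest PBS library, and the ranges of the doses overlapped. Group means were 18.2 ± 5.27 CPM (SD, n = 4), 41.0 ± 8.17 CPM (n = 5) and 53.6 ± 12.7 CPM (n = 5). The log2 fold change against PBS was 1.17 ± 0.22 (SE) at 100 mg/kg (edgeR adjusted p = 0.0218) and 1.56 ± 0.22 at 140 mg/kg (adjusted p = 0.000371). The call at 100 mg/kg was lost without PBS 3 (adjusted p = 0.0685), PBS 4 (0.0728), CTX100 3 (0.0503) or CTX100 5 (0.055), with the fold between 0.99 and 1.32 on the log2 scale over the 14 fits that each left out 1 library. The call at 140 mg/kg held in all 14. The listed length of Cxcl10, 2252 bases, is its whole locus, since a retained-intron transcript covers the introns, so its per-length level is understated.

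Cxcl11, also known as I-TAC, had the largest fold of the 5 genes in both comparisons with PBS. Its levels were 14.5, 8.95, 9.50 and 19.4 CPM in PBS 1 to 4 and 42.0, 51.4, 37.5, 39.6 and 43.4 CPM in CTX100 1 to 5. In CTX140 1 to 5 they were 32.4, 81.8, 79.3, 24.8 and 58.9 CPM. The CTX100 libraries were close together, whereas the CTX140 libraries spread on both sides of them, and neither dose overlapped PBS. Means were 13.1 ± 4.89 CPM (SD, n = 4), 42.8 ± 5.31 CPM (n = 5) and 55.4 ± 26.2 CPM (n = 5). The log2 fold change was 1.70 ± 0.34 (SE) at 100 mg/kg (edgeR adjusted p = 0.027) and 2.08 ± 0.34 at 140 mg/kg (adjusted p = 0.00112). At 100 mg/kg the call was lost with no filter on low counts (adjusted p = 0.0729) and without PBS 3 (0.113), PBS 4 (0.0551) or CTX100 1 (0.0573), 2 (0.0633), 3 (0.0543), 4 (0.0525) or 5 (0.0619). The fold stayed between 1.56 and 1.95 on the log2 scale in those fits, and the call at 140 mg/kg held in all 14.

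Reads from the opposite strand could enter these counts, since the strand setting is not given in the sources used here. Art3, on the plus strand, shares 133 exonic bases with Cxcl10, and had a mean of 0.588 CPM in PBS, 1.40 CPM in CTX100 and 2.84 CPM in CTX140, with at most 75 reads in a library. The processed pseudogene Gm2673, also on the plus strand, shares 1582 of the 3794 exonic bases of Cxcl11, and had 0 counts in every library. Of the tested genes within 100 kb of the ligand genes, the changes of Naaa, Sdad1, Nup54 and Scarb2 did not pass the test at either dose. Art3 itself rose at 140 mg/kg (log2 fold change 2.27, adjusted p = 0.0077).

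Cxcl9, also known as MIG, was the most abundant ligand RNA per length and the one whose levels varied most at 140 mg/kg. Its levels were 133, 74.9, 137 and 167 CPM in PBS 1 to 4, and 163, 153, 130, 151 and 154 CPM in CTX100 1 to 5. In CTX140 1 to 5 they were 201, 448, 255, 80.5 and 136 CPM. The CTX140 libraries held both the highest level of the series, in CTX140 2, and 1 of the lowest, in CTX140 4, and all 3 groups overlapped. Means were 128 ± 38.5 CPM (SD, n = 4), 150 ± 12.3 CPM (n = 5) and 224 ± 142 CPM (n = 5). The log2 fold change was 0.23 ± 0.37 (SE; 95% interval -0.56 to 1.02; edgeR adjusted p = 0.792) at 100 mg/kg. The value at 140 mg/kg was 0.81 ± 0.37 (0.01 to 1.61; adjusted p = 0.136). Without CTX140 2 the value at 140 mg/kg was 0.40, and without CTX140 4 it was 1.01 and called (adjusted p = 0.0289).

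The macrophage markers varied along with Cxcl9. Their summed level over 10 markers, none of them at 0 in any library, was 1266 to 2089 CPM in PBS, 754 to 1597 CPM in CTX100 and 877 to 4278 CPM in CTX140. The highest of these values was in CTX140 2 and the lowest CTX140 value was in CTX140 4, the same libraries that were highest and lowest for Cxcl9 within that group. Over the 14 libraries the deviations of Cxcl9 from its group means followed those of the list's mean log2 CPM, not its sum, with r = 0.79. Other lists varied with Cxcl9 too. The same r was 0.66 for monocytes, 0.55 for blood endothelium, 0.45 for Th1, cytotoxic and NK cells, 0.34 for T cells and -0.65 for neutrophils. CTX140 2 also had the highest summed monocyte (542 CPM) and fibroblast (5291 CPM) markers of the series. The part of any of these cell types in the level of Cxcl9 was not tested.

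Per length, the 3 ligands together measured 53.7 ± 12.8 FPKM in PBS (SD, n = 4), 78.9 ± 6.74 FPKM in CTX100 (n = 5) and 113 ± 55.3 FPKM in CTX140 (n = 5). FPKM is the authors' count per 1000 bases of gene and 1000000 scaled reads. Cxcl9 made up 77.6 ± 8.45% of that sum in PBS, 62.9 ± 2.41% in CTX100 and 62.6 ± 10.6% in CTX140. The share of Cxcl10 was 16.1 ± 8.14%, 22.8 ± 3.45% and 24.1 ± 8.32%. The share of Cxcl11 ran from 4.74 to 7.38% in PBS, from 12.6 to 17.2% in CTX100 and from 8.85 to 17.6% in CTX140, so neither dose overlapped PBS for this share. These shares are a description without a test. They and the order by FPKM depend on the listed lengths, which pool all transcripts of a gene. For Cxcl9 as for Cxcl10 these include a retained-intron transcript, and its effect on the shares was not worked out. At the level of single genes, Cxcl9 measured 42.3, 49.6 and 74.3 FPKM, Cxcl10 8.04, 18.1 and 23.8 FPKM, and Cxcl11 3.43, 11.2 and 14.6 FPKM as means of PBS, CTX100 and CTX140. Ido1 was at 1.97, 4.79 and 7.51 FPKM and Cxcr3 at 1.51, 1.33 and 2.03 FPKM. By mean FPKM the order was Cxcl9, Cxcl10, Cxcl11, Ido1 and Cxcr3 in each group.

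**Figure D2:**
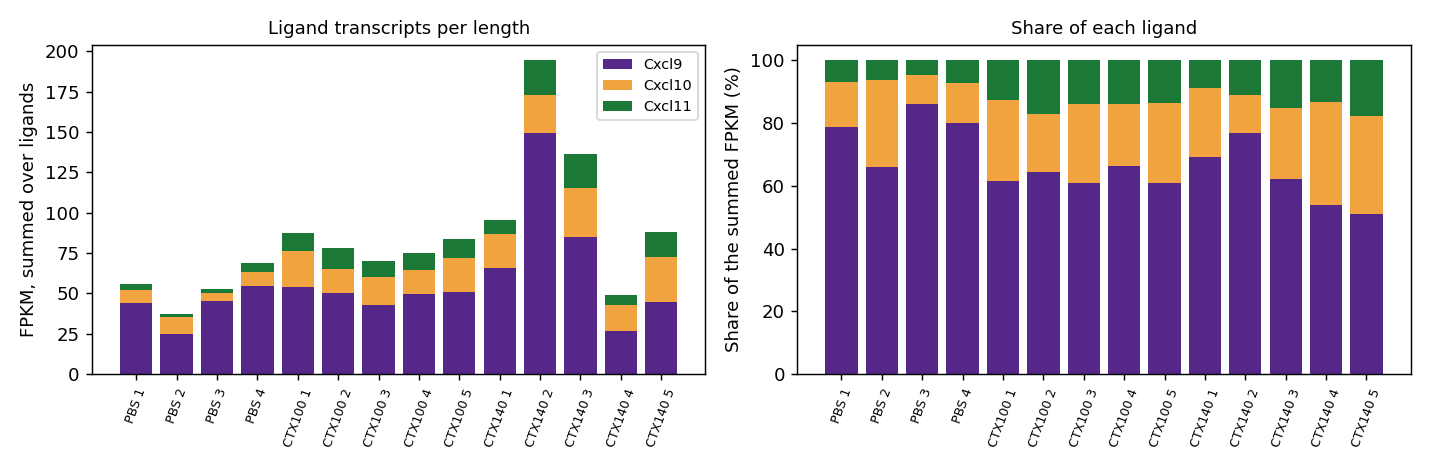
Ligand RNA per length in each library, as stacked bars of FPKM from 0 (left) and as the percent share of each ligand in the 3-ligand sum (right). Cxcl9 is the largest segment in all 14 libraries, CTX140 2 has the tallest bar, and the Cxcl11 segment is 7.38% or less in PBS and 8.85% or more in every treated library.

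Cxcr3, the receptor gene, was scarce and showed no change that passed the test. Its levels were 3.74, 2.60, 1.12 and 3.02 CPM in PBS 1 to 4, and 1.87, 2.99, 2.80, 0.974 and 2.97 CPM in CTX100 1 to 5. In CTX140 1 to 5 they were 9.11, 3.33, 2.15, 1.23 and 1.82 CPM. CTX140 1 alone exceeded the PBS range, and the other 4 CTX140 libraries lay within it. These levels rest on 15 to 152 reads per library. The log2 fold change was -0.17 ± 0.52 (SE; 95% interval -1.28 to 0.93; edgeR adjusted p = 0.901) at 100 mg/kg and 0.43 ± 0.52 (-0.68 to 1.53; adjusted p = 0.588) at 140 mg/kg. Without CTX140 1 the value at 140 mg/kg was -0.30. At 100 mg/kg it was 0.04 without PBS 1 and 0.02 without CTX100 4.

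T cell markers moved in the same libraries as Cxcr3. All 13 markers on the list had reads in every library, and their summed level was 114 to 194 CPM in PBS, 141 to 187 CPM in CTX100 and 166 to 1026 CPM in CTX140. The deviations of Cxcr3 from its group means followed those of the list's mean log2 CPM with r = 0.82 over 14 libraries, a value that CTX140 1 weighs on. This was not particular to T cells. The same r was 0.81 for regulatory T cells, 0.80 for conventional and for mature dendritic cells and 0.79 for plasmacytoid dendritic cells. It was 0.78 for Th1, cytotoxic and NK cells and 0.70 for B cells and plasma cells, but 0.40 for macrophages and -0.63 for neutrophils. The level of Cxcr3 relative to these markers was taken as its log2 CPM minus their mean log2 CPM. It was -1.39, -1.01, -1.71 and -0.53 in PBS 1 to 4 and -1.66, -0.63, -0.94, -2.29 and -1.31 in CTX100 1 to 5. In CTX140 1 to 5 it was -2.75, -2.23, -2.00, -2.25 and -1.55, so the library with the most Cxcr3 had the least of it per T cell marker. The mean differed by -0.999 between CTX140 and PBS (two-sided exact permutation p = 0.0238, adjusted over 3 comparisons 0.0714), by -0.79 between CTX140 and CTX100 (exact permutation p = 0.0794, adjusted 0.119) and by -0.21 between CTX100 and PBS (exact permutation p = 0.627, adjusted 0.627). None passed after adjustment with all libraries in. The smallest p the test can give is 0.00794 against PBS and 0.00397 between the doses. Without CTX100 4 the adjusted p of both comparisons with CTX140 was 0.0357, and the difference between CTX140 and CTX100 was -1.03 (exact permutation test). That was the only 1 of the 14 fits without 1 library that passed. In the others the adjusted p reached 0.171 against PBS and 0.226 between the doses. With log2(FPKM + 1), with Cd3e alone or without PBS 1 and CTX140 1 together, it was 0.0595 to 0.226 against PBS and 0.0595 to 0.357 between the doses.

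**Figure D3:**
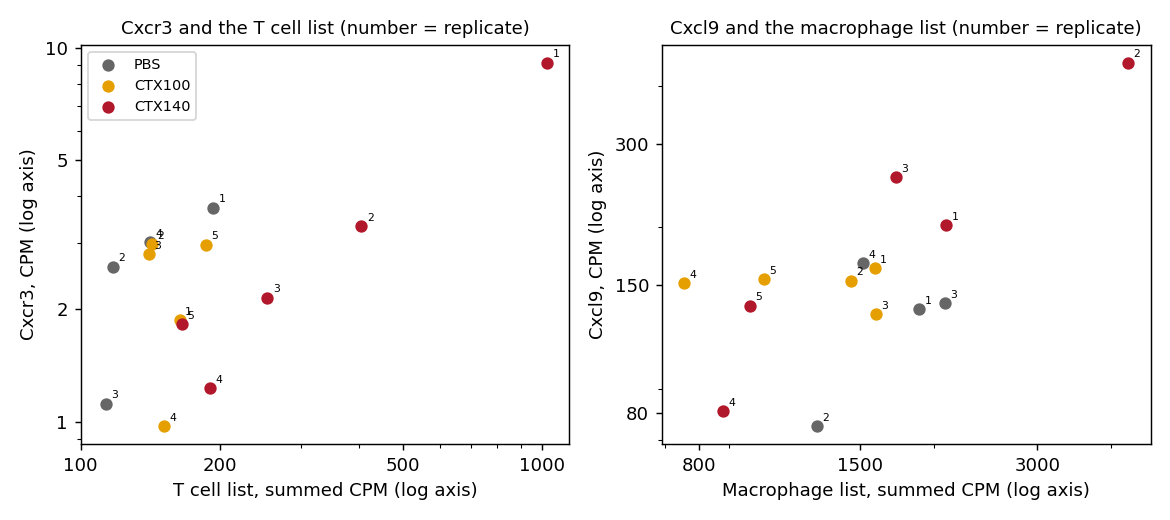
Cxcr3 against the summed T cell markers (left) and Cxcl9 against the summed macrophage markers (right), 1 point per library in CPM on log axes, coloured by group and numbered by replicate. CTX140 1 is the rightmost and highest point on the left at 1026 and 9.11 CPM, and CTX140 2 on the right at 4278 and 448 CPM.

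Ido1, which catalyses the first and rate-limiting step of the kynurenine pathway, rose at both doses. Its levels were 2.71, 2.94, 2.52 and 6.32 CPM in PBS 1 to 4, and 7.42, 7.89, 7.51, 10.9 and 10.3 CPM in CTX100 1 to 5. In CTX140 1 to 5 they were 17.0, 14.6, 15.3, 11.5 and 10.3 CPM. PBS 4 was the highest PBS library and still lay below every treated library, and the doses overlapped at CTX140 4 and CTX140 5. Means were 3.62 ± 1.81 CPM (SD, n = 4), 8.80 ± 1.66 CPM (n = 5) and 13.7 ± 2.74 CPM (n = 5). The log2 fold change was 1.27 ± 0.27 (SE) at 100 mg/kg (edgeR adjusted p = 0.0278) and 1.91 ± 0.27 at 140 mg/kg (adjusted p = 0.000329). At 100 mg/kg the call was lost without PBS 1 (adjusted p = 0.055), PBS 3 (0.118) or CTX100 2 (0.054), 3 (0.0543), 4 (0.066) or 5 (0.0691), with the fold between 1.13 and 1.68 on the log2 scale. The call at 140 mg/kg held in all 14 fits. Its neighbour and relative Ido2 was at 1.56 ± 0.384, 2.12 ± 0.808 and 2.68 ± 1.31 CPM in PBS (n = 4), CTX100 (n = 5) and CTX140 (n = 5), with log2 fold changes of 0.43 (adjusted p = 0.624) and 0.77 (adjusted p = 0.188).

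Between the doses no gene of the 5 was called, where 0.775% of all tested genes were called higher at 140 mg/kg and 0.475% lower. None of the 5 had groups that did not overlap, against 2.33% of tested genes that were higher without overlap. One of them, Ido1, had an unadjusted p under 0.05 in edgeR, and DESeq2 and limma also called 0 of 5. Ido1 was higher at 140 mg/kg by 0.64 ± 0.24 on the log2 scale (SE; 95% interval 0.14 to 1.15; unadjusted p = 0.0153; adjusted p = 0.132 in edgeR). The differences for the ligands were 0.58 ± 0.35 for Cxcl9, 0.39 ± 0.20 for Cxcl10 and 0.37 ± 0.30 for Cxcl11, with upper bounds of 1.32, 0.81 and 1.01. For Cxcr3 it was 0.60 ± 0.49, and -0.12 without CTX140 1. In the order of group means, CTX140 was above CTX100 for all 5 genes. The interval of the difference held 0 for Cxcl9, Cxcl10, Cxcl11 and Cxcr3, while that of Ido1 lay above 0 although its adjusted p missed the threshold.

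**Figure D4:**
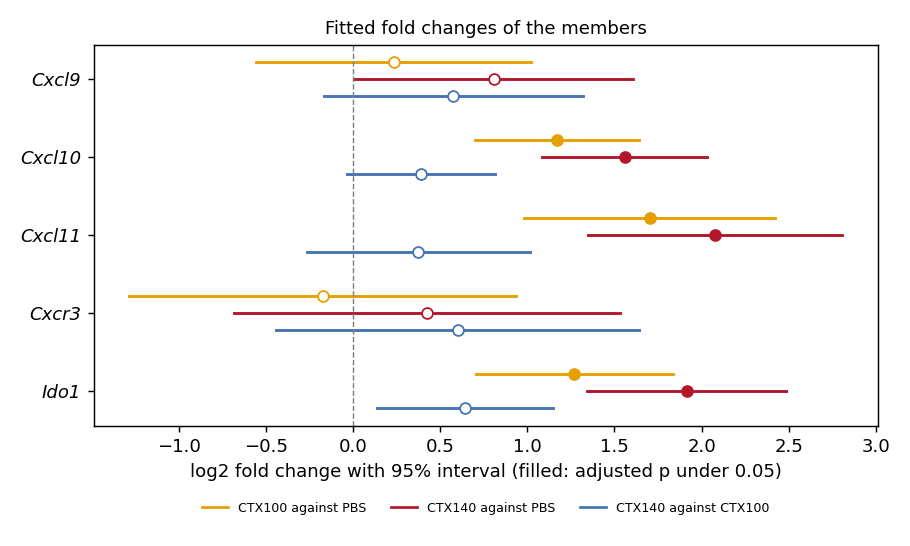
Fitted log2 fold change of each gene with its 95% interval in the 3 comparisons, filled where the adjusted p was under 0.05. Both comparisons with PBS are filled for Cxcl10, Cxcl11 and Ido1, and no comparison between the doses is.

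Cxcl9 and Cxcl10 varied with little relation to each other within the groups. The deviations from group means of Cxcl9 and Cxcl10 had r = 0.17 over 14 libraries, those of Cxcl9 and Cxcl11 0.76, and those of Cxcl10 and Cxcl11 0.48. The genes most like each member were ranked by Pearson's r of log2 CPM over the 14 libraries among at least 12343 protein-coding genes, which is a description of libraries that share treatment groups. Among the closest to Cxcl9 were Serpina3g (r = 0.92), Gbp4 (0.90), Tnfsf12 (0.90) and Gpr171 (0.87), with r of 0.85 to 0.93 within groups. Closest to Cxcl10 were Ifit3b (0.94), Mx1 (0.94), Ifit1 (0.93), Aaas (0.93) and Zbp1 (0.93), of which Ifit3b, Mx1, Ifit1 and Zbp1 are known as interferon-induced genes. Their r within groups was 0.65 to 0.71. Closest to Cxcl11 were Basp1 (0.92), Il1rl1 (0.90), Rangap1 (0.90), Ifit3b (0.89) and Neurl3 (0.89). Closest to Ido1 were Gxylt2 (0.93), Parp14 (0.92), Cebpe (0.92), C1qtnf7 (0.92) and Il18rap (0.92), with r of 0.37 to 0.75 within groups. Closest to Cxcr3 were Clec2i (0.90), Slc17a9 (0.90), Ptpn7 (0.88), Agap2 (0.87) and the T and NK cell gene Cd7 (0.87), with r of 0.90 to 0.93 within groups.

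The interferon gamma pathway was examined upstream of these genes. Ifng itself was at 1.26 ± 0.917 CPM in PBS (SD, n = 4), 2.33 ± 1.77 CPM in CTX100 (n = 5) and 3.56 ± 1.37 CPM in CTX140 (n = 5), with log2 fold changes of 0.89 ± 0.55 (SE; edgeR adjusted p = 0.414) and 1.51 ± 0.55 (adjusted p = 0.0601). At 140 mg/kg its call was gained with DESeq2 (adjusted p = 0.0263), with limma, and without PBS 2 (0.0161), CTX100 3 (0.0469) or CTX100 5 (0.0412). Of 11 genes on the signalling list, 3 rose and 1 fell at 140 mg/kg, beside 11.1% and 10.1% of all tested genes. Those that rose were the feedback inhibitor Socs1 (1.19 ± 0.23, adjusted p = 0.00242) and the transcription factors Irf1 (0.46 ± 0.12, adjusted p = 0.0162) and Irf8 (0.60 ± 0.17, adjusted p = 0.0196). The kinase gene Jak2 was the one that fell (-0.31 ± 0.10, adjusted p = 0.0375), a call that was lost in 6 of the 14 fits without 1 library, those without PBS 2, PBS 3 or CTX140 1, 2, 3 or 5 (largest adjusted p 0.102). It was also lost with upper quartile scaling (0.0586), no filter (0.0905), only the compared groups (0.0707), the replicate block (0.0898) and without PBS 1 and CTX140 1 together (0.0604). Irf1 lost its call without PBS 3 (0.0617) and Irf8 without PBS 3 (0.0713) or PBS 4 (0.0544) and with only the compared groups (0.0689). The lower dose had 0 of 11 called by edgeR, 3 had an unadjusted p under 0.05, and DESeq2 called 1 and limma 0. Within groups Ido1 followed Irf1 with r = 0.76.

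The median log2 fold change of 18 further interferon gamma-induced genes was 0.60 at 140 mg/kg, beside 0.02 over all tested genes. Of these 18, 10 rose and 0 fell, beside 11.1% and 10.1% of all tested genes. They included the immunity-related GTPases Igtp, at 163 ± 27.0 CPM in PBS (n = 4) and 341 ± 54.4 CPM in CTX140 (n = 5) (1.06 ± 0.17, edgeR adjusted p = 0.000629), and Irgm1 (0.91 ± 0.14, adjusted p = 0.000657). The guanylate-binding protein gene Gbp5 (1.07 ± 0.17, adjusted p = 0.000784) and Cd274, which encodes PD-L1 (1.24 ± 0.22, adjusted p = 0.00147), also rose. These folds were smaller than the 1.56 to 2.08 of Cxcl10, Cxcl11 and Ido1, a comparison of values without a test. For the lower dose edgeR and limma called 0 of 18, 8 had an unadjusted p under 0.05, all higher, and DESeq2 called 2. Without CTX140 1 the count at 140 mg/kg was 9, and without CTX140 2 it was 8. Of 11 tested genes of type I interferon signalling, only Irf7, the amplifier of that response, was called at 100 mg/kg (1.13 ± 0.20, adjusted p = 0.0172). DESeq2 called 3. The call of Irf7 was lost without PBS 3 (0.0656) or PBS 4 (0.0691). At 140 mg/kg 4 rose: Irf7 (1.71 ± 0.20, adjusted p = 0.000108), the RNA sensors Ddx58 and Ifih1, and Stat2.

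Other chemokines that attract T and NK cells were compared with the Cxcr3 ligands. Of 16 tested genes, 4 rose at 100 mg/kg, beside 1.2% of all tested genes, and all 4 were CC chemokine genes. Ccl5, also known as RANTES, had mean levels of 15.8 ± 7.91 CPM (PBS, n = 4), 61.0 ± 8.26 CPM (CTX100, n = 5) and 123 ± 58.4 CPM (CTX140, n = 5), with log2 fold changes of 1.95 ± 0.37 (edgeR adjusted p = 0.0244) and 2.95 ± 0.39 (adjusted p = 0.000329). Ccl4 rose by 1.18 ± 0.23 (adjusted p = 0.0244), Ccl2 by 0.90 ± 0.19 (adjusted p = 0.0271) and Ccl3 by 1.38 ± 0.32 (adjusted p = 0.0477) at 100 mg/kg. At 140 mg/kg Ccl4, Ccl3 and Ccl2 rose by 2.33 ± 0.24, 2.62 ± 0.34 and 1.30 ± 0.19. Each of these 4 calls at 100 mg/kg was lost without PBS 3 and without PBS 4, with adjusted p between 0.0685 and 0.167, and each also without 2 or more other libraries. With no filter the adjusted p was 0.059 for Ccl5 and 0.13 for Ccl3, and with limma on log2(FPKM + 1) it was 0.0584 for Ccl3. At 140 mg/kg 6 of 16 rose and 1 fell, beside 11.1% and 10.1% of all tested genes. All 4 of the genes named here held their call at that dose in all 14 fits. Between the doses 2 of 16 rose, of which Ccl4 (1.15 ± 0.21, adjusted p = 0.026) lost its call without CTX100 1, 2, 3 or 4 or CTX140 2 or 3 (largest adjusted p 0.0821), and without PBS 1 and CTX140 1 together (0.0522).

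A list of 6 genes held a related chemokine gene, Pf4, and genes of partners that bind, cleave or take up the Cxcr3 ligands. Of these 6, 3 rose and 1 fell at 140 mg/kg. Of all tested genes 11.1% were called higher and 10.1% lower at that dose. Dpp4, the protease that trims the ligands at their amino end, rose from 3.37 ± 1.42 CPM in PBS (n = 4) to 12.2 ± 9.29 CPM in CTX140 (n = 5) (1.84 ± 0.47, edgeR adjusted p = 0.0135; 0.0526 with only the compared groups). Pf4, which encodes the related chemokine Cxcl4, rose by 2.21 ± 0.43 (adjusted p = 0.00342), and Ackr1, a chemokine-binding receptor of red cells and venules, by 3.62 ± 0.73 (adjusted p = 0.00298) from 0 to 0.422 CPM in PBS to 0.856 to 3.48 CPM in CTX140. The proteoglycan gene Sdc4 fell by 0.44 (adjusted p = 0.0436), a call that was lost without PBS 1, 3 or 4, CTX100 2, 3, 4 or 5, or CTX140 1 or 2 (largest adjusted p 0.147), without PBS 1 and CTX140 1 together (0.094), and with upper quartile scaling (0.0629), no filter (0.051), only the compared groups (0.108) or limma (0.0532 on log2(FPKM + 1) and 0.0509 on log2(FPKM + 0.1)). The change of Ackr3, the scavenging receptor of Cxcl11, was -0.04 ± 0.22 (adjusted p = 0.909). For 100 mg/kg edgeR called 0 of 6, 2 had an unadjusted p under 0.05, and DESeq2 called 1 and limma 0.

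No other tryptophan pathway gene was called at 100 mg/kg: of 9 tested genes 0 were called by edgeR, DESeq2 or limma, and 0 had an unadjusted p under 0.05. The higher dose raised 2 of 9, beside 11.1% of all tested genes called higher and 10.1% called lower at that dose. Qprt, which acts late on the route from kynurenine to NAD, was at 0.723, 1.23, 0.419 and 0.494 CPM in PBS 1 to 4 and at 3.95, 1.78, 1.72, 0.820 and 2.94 CPM in CTX140 1 to 5 (log2 fold change 1.65 ± 0.45, edgeR adjusted p = 0.0169). Its call was lost without PBS 3 (0.0615) or PBS 4 (0.0621), without PBS 1 and CTX140 1 together (0.0654) and with only the compared groups (0.0518). Kynu, the kynureninase gene, was at 1.27, 0.273, 0.210 and 0.384 CPM in PBS and at 5.87, 3.27, 0.859, 0.751 and 0.696 CPM in CTX140 (2.07 ± 0.68, adjusted p = 0.0397). Its highest library was CTX140 1, the groups overlapped at PBS 1, and the call was lost without PBS 2, 3 or 4, CTX100 1, 2 or 3, or CTX140 1 or 2, with 1.36 on the log2 scale and an adjusted p of 0.114 without CTX140 1. It was also lost with limma on log2(FPKM + 1) (0.133) or log2(FPKM + 0.1) (0.0842) and with only the compared groups (0.106). Tdo2, the other tryptophan dioxygenase, changed by -0.08 ± 0.64 (adjusted p = 0.938). Between the doses edgeR called Qprt alone of the 9 (1.96 ± 0.42, adjusted p = 0.0384), and it lost that call without any 1 of the 5 CTX100 libraries or CTX140 1, 2 or 3 (largest adjusted p 0.103), and with limma on log2(FPKM + 1) (0.0597). DESeq2 called 2 of 9, and Kynu (adjusted p = 0.0534 in edgeR) was called between the doses with DESeq2 (0.00438), no filter (0.0365) and the replicate block (0.0469), and without PBS 1 (0.0474), CTX140 4 (0.0351) or CTX140 5 (0.0238). Of 8 genes of tryptophan supply and amino acid sensing, 2 rose at 140 mg/kg, Ddit3 (0.94 ± 0.22, adjusted p = 0.00878) and the tryptophanyl-tRNA synthetase gene Wars (0.37 ± 0.10, adjusted p = 0.0128). The call of Wars was lost with no filter (0.0802) and with only the compared groups (0.0591). Of 5 tested genes of the aryl hydrocarbon receptor, 0 rose and Arnt fell by 0.44 (adjusted p = 0.0287), which was lost without PBS 3 (0.105), PBS 4 (0.0936), CTX140 2 (0.065) or CTX140 5 (0.0525), with only the compared groups (0.0782) and with the replicate block (0.0586).

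**Figure D5:**
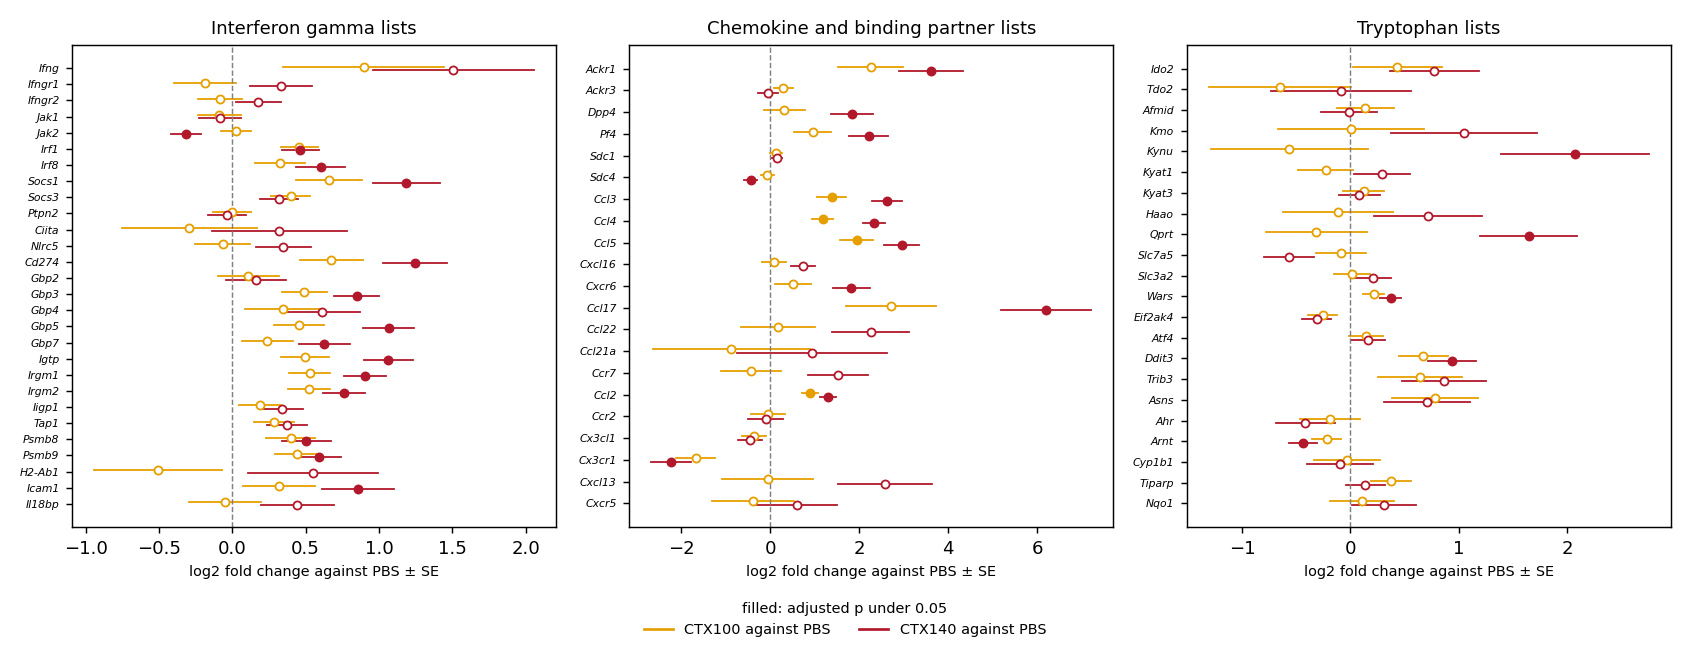
Fitted log2 fold change against PBS ± SE at each dose for tested genes of the interferon gamma lists (left), the chemokine and binding partner lists (middle) and the tryptophan, amino acid sensing and aryl hydrocarbon receptor lists (right), filled where the adjusted p was under 0.05. Filled points at 100 mg/kg are Ccl3, Ccl4, Ccl5 and Ccl2, while at 140 mg/kg they include 10 interferon gamma-induced genes and, on the right, Kynu, Qprt, Wars, Ddit3 and Arnt.

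At 140 mg/kg 11.1% of all tested genes were called higher. The tumour necrosis factor and NF-kappaB list had 3 of 8 tested genes higher at that dose. These were Tnf (1.64 ± 0.35, edgeR adjusted p = 0.00474), Tnfaip3 (0.53 ± 0.10, adjusted p = 0.00235) and Nfkb2 (0.38 ± 0.12, adjusted p = 0.0386), of which Nfkb2 lost its call without PBS 1, 3 or 4, CTX100 1, 2 or 3, or CTX140 1 or 4 (largest adjusted p 0.129), without PBS 1 and CTX140 1 together (0.117), with no filter (0.101) and with only the compared groups (0.105). With 100 mg/kg edgeR called 0 of 8, 4 had an unadjusted p under 0.05, and DESeq2 called 1 and limma 0. The part of this pathway in the rise of Cxcl10 was not tested.

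Markers of the cells that carry Cxcr3 were counted next, beside 1.2% of all tested genes called higher at 100 mg/kg and 11.1% at 140 mg/kg. Of 13 T cell markers, 6 rose at 140 mg/kg, among them Thy1 (1.17 ± 0.23, edgeR adjusted p = 0.00281) and Cd3g (1.82 ± 0.53, adjusted p = 0.027). The count was 3 without CTX140 1, 4 without CTX140 2, and 2 by limma. Cd3e, a subunit of the T cell receptor complex, was at 44.0 CPM in CTX140 1, 12.4 CPM in CTX140 2 and 2.30 to 4.17 CPM in the other CTX140 libraries, beside 1.05 to 7.35 CPM in PBS, and its change was not called (adjusted p = 0.111). Of 12 tested Th1, cytotoxic and NK cell markers, 4 rose at 140 mg/kg, namely Gzmb (1.00 ± 0.18, adjusted p = 0.00179), Nkg7 (1.81 ± 0.41, adjusted p = 0.00773), Klrd1 (1.87 ± 0.44, adjusted p = 0.00878) and Prf1 (0.83 ± 0.21, adjusted p = 0.0133), and each held its call in all 14 fits without 1 library. At 100 mg/kg 0 of 13 and 0 of 12 were called by edgeR, DESeq2 or limma, with 0 and 1 at an unadjusted p under 0.05 in edgeR. Cd3g lost its call without PBS 2, 3 or 4 (largest adjusted p 0.0862), with no filter (0.0868) and with only the compared groups (0.0736). Thy1 held its call in all 14 fits, but bulk RNA does not show which cells its reads came from. At the same dose 6 of 8 fibroblast markers were also called higher, and whether the Thy1 reads came from T cells was not tested.

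Markers of several other cell types differed between the groups as well. The shares of all tested genes called higher were 1.2% at 100 mg/kg and 11.1% at 140 mg/kg. Of 8 fibroblast markers, 2 rose at 100 mg/kg (Dpt and Col3a1) and 6 at 140 mg/kg, and 0 fell. Pdgfra and Pdgfrb were not called at either dose, with log2 fold changes of -0.55 and -0.37 at 100 mg/kg and -0.60 and -0.01 at 140 mg/kg. The summed level of the 8 markers, none at 0 in any library, was 649 to 1018 CPM in PBS, 1073 to 1847 CPM in CTX100 and 1898 to 5291 CPM in CTX140. The r values below use the mean log2 CPM of the tested markers of a list, not their sum, over 14 libraries. Over all libraries r with the fibroblast list was 0.80 for Cxcl10, 0.76 for Cxcl11 and 0.85 for Ido1. Within groups it was 0.11, 0.21 and 0.15. The first kind of r takes in the differences between the groups, and the second leaves them out. The summed macrophage level overlapped between all groups. For the macrophage list r was -0.08 for Cxcl10 and 0.10 for Cxcl11 over all libraries, and -0.07 and 0.40 within groups. Adipocyte markers rose at 140 mg/kg in 5 of 5 tested genes, with a median log2 fold change of 4.11, and 0 of 5 were called at 100 mg/kg by edgeR, where 3 had an unadjusted p under 0.05, DESeq2 called 1 and limma 0. The summed level of the 6 adipocyte markers, tested or not, was 7.19 to 49.3 CPM in PBS, 39.3 to 111 CPM in CTX100 and 77.2 to 383 CPM in CTX140. Up to 3 of these markers were at 0 in a PBS library. For the adipocyte list r was 0.69 for Cxcl10, 0.58 for Cxcl11 and 0.66 for Ido1 over all libraries. Within groups it was -0.05, -0.24 and -0.37. Of 6 monocyte markers, 4 rose at 140 mg/kg and 0 were called at 100 mg/kg by edgeR, where 3 had an unadjusted p under 0.05, DESeq2 called 1 and limma 0. Their summed level was 116 to 272 CPM in PBS, 183 to 345 CPM in CTX100 and 198 to 542 CPM in CTX140, none at 0. For the monocyte list r was 0.56 for Cxcl10, 0.70 for Cxcl11 and 0.71 for Ido1 over all libraries. Within groups it was -0.28, 0.25 and 0.14. Carcinoma epithelium markers rose in 4 of 8 genes at 140 mg/kg and conventional dendritic cell markers in 3 of 9. The summed carcinoma level was 1707 ± 374 CPM in PBS (SD, n = 4), 1975 ± 156 CPM in CTX100 (n = 5) and 1692 ± 260 CPM in CTX140 (n = 5). The part of any of these cell types in the rise of Cxcl10, Cxcl11 and Ido1 was not tested.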

How the data were processed

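Bulk RNA-seq of 14 tumour libraries was used, grouped by the treatment in the sample labels. The authors deposited whole-number read counts per Ensembl gene, not normalized, and an FPKM table. The FPKM values deposited by the authors matched counts per listed gene length, scaled by the DESeq2 size factor times the geometric mean of library totals. Per the submitters' processing notes the build is mm10 and DESeq2 was used. Which aligner, counter and strandedness were chosen is not given in the sources used here.

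Counts were tested with edgeR 4.0.16 (R 4.3.3) by the quasi-likelihood test: TMM factors, filterByExpr by group (15360 genes kept), robust fit of all 14 libraries with a mean per group, two-sided, Benjamini-Hochberg adjustment over all genes of a comparison, called under 0.05. The SE is the size of the log2 fold change divided by the square root of its F value. CPM uses TMM-scaled library sizes, and log2 CPM a prior count of 2. Cxcr3 relative to T cell markers was compared by a two-sided exact permutation test over libraries. The test was checked on simulated counts. Alternatives were upper quartile or RLE scaling, no low-count filter or a filter of 1 CPM in 4 libraries, DESeq2 1.42.0, limma 3.58.1 on log2(FPKM + 1) or log2(FPKM + 0.1), fits of only the compared groups, a replicate block and leaving out each library.

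The 9 pathway and 16 marker lists (223 symbols, 205 tested) and the members were chosen with earlier results of these data known. From each list the text names up to 4 genes with the smallest p in a comparison and any ligand, receptor or rate-limiting enzyme, and for each member the 5 genes of highest Pearson r among tested protein-coding genes of at least 1 CPM, leaving out model names. Results of a few list genes are not reported here. Marker genes were named by the same smallest p, and Cd3e after its values were seen. Of 3 symbols on more than 1 row, the row with the most reads was used. Promoters are RefSeq sequences on GRCm38.p6, and gene models GENCODE M21.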

Additional observations from a re-analysis of the deposited data

Results flagged for a closer look

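A pair of values lay far from the others of their group. Each of the 5 genes was checked in each of the 3 groups, 15 groups in all, by the gap between the most extreme library and its nearest neighbour as a share of the group's range. Chance flags about 1 in 20 groups, and 2 of 15 stood out. Cxcr3 was at 9.107 CPM in CTX140 1, beside 3.33 CPM in the next library of that group, and CTX140 1 also had the highest summed T cell (1026 CPM) and B cell (154 CPM) markers of the series. Ido1 was at 6.315 CPM in PBS 4, beside 2.94 CPM in the next PBS library, and the T cell markers summed to 141 CPM there, within the PBS range of 114 to 194 CPM.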

How the results depend on the processing

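At 140 mg/kg Cxcl10, Cxcl11 and Ido1 were called under each of the 10 other settings and in all 14 fits without 1 library. With Cxcl9 called in 1 of those fits, the members called ranged from 3 to 4. At 100 mg/kg the members called ranged from 0 to 3 when 1 library was left out, although the largest unadjusted p of the 3 risers over those fits was 0.00116, and the count was 2 with no filter and 2 with the replicate block. It was 3 under the other alternatives. Between the doses it was 0 throughout. The count over all genes moved more. For CTX100 against PBS it was 245, and 821 with DESeq2, 529 with only the compared groups, 148 with limma on log2(FPKM + 1), 499 without PBS 1 and CTX140 1 together, and 17 to 686 without 1 library. For CTX140 against PBS it was 3268, and 1878 with only the compared groups and 1975 to 3894 without 1 library. For CTX140 against CTX100 it was 192, and 1264 with DESeq2, 293 with the replicate block, 58 without PBS 1 and CTX140 1 together, and 0 to 1007 without 1 library. The removal of this pair of libraries, highest in B cell markers, was chosen after seeing the data, as were the list counts without single CTX140 libraries.

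Cxcr3 changed sign. Its log2 fold change without PBS 1 and CTX140 1 together was 0.04426 for CTX100 against PBS, -0.07917 for CTX140 against PBS and -0.1234 between the doses. With 1 library left out it was 0.04353 without PBS 1 and 0.01742 without CTX100 4 at 100 mg/kg, -0.2961 at 140 mg/kg and -0.1212 between the doses without CTX140 1. The ranges were -0.4229 to 0.04353, -0.2961 to 0.6312 and -0.1212 to 0.8067. Cxcr3 relative to T cell markers ranged from -0.3892 to 0.02552 for CTX100 against PBS (0.00367 without PBS 4, 0.02552 without CTX100 4), from -1.182 to -0.7901 for CTX140 against PBS, and from -1.025 to -0.6101 between the doses. The cause of these changes was not tested. Replicate numbers are shared between groups, and the labels do not say whether they pair the libraries. Over 13 same-numbered pairs the correlation of deviations ran from -0.19 to 0.43 and was over 0.1 in 6. Of the 13 pairs, 6 correlated best with their own number. These were CTX100 1, 2, 4 and 5 with CTX140, and PBS 1 and 4 with CTX140. No PBS library did so with CTX100. The number to be met without any pairing was not worked out. Whether the numbers mark a pairing or a shared batch was not tested. With the replicate block Cxcl11 at 100 mg/kg was 1.641 (adjusted p = 0.0661), and no other member's call changed. Cxcr3, at 15 to 152 reads per library, is the member that depth limits most.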
